A study of Mus musculus with 6 samples.

Results

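A set of 10 genes of the Hippo pathway, taken by symbol from the raw count table, were followed in sorted mouse hepatocytes: the kinases Stk3, Stk4, Lats1 and Lats2, the scaffold Sav1, the coactivators Yap1 and Wwtr1, the DNA-binding partner Tead1, and the target genes Ctgf and Cyr61. All 10 were found among the 15565 genes of the table, and all 10 passed the filter on low counts that left 13288 genes for testing. Cells were obtained by collagenase perfusion of the livers of 3 C57BL/6 mice aged 2 months, and from each mouse a TERT(High) and a TERT(Low) population was sorted, which gave 3 libraries in each group. Every mouse had the genotype Tert(CreERT2/+); R26(LSL-Tomato/+), so cells of both groups carried a tamoxifen-inducible Cre recombinase at 1 copy of Tert, the gene of the telomerase catalytic subunit, and a Cre-dependent red fluorescent reporter at R26, also on 1 copy. Neither the sort gate nor any tamoxifen dosing is given in the sources used here.

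The Hippo pathway is a kinase relay that restrains organ growth. The kinases MST2 and MST1 (encoded by Stk3 and Stk4), held by the scaffold SAV1, phosphorylate LATS1 and LATS2, and these in turn phosphorylate YAP and TAZ (encoded by Yap1 and Wwtr1), which keeps them out of the nucleus and promotes their breakdown. Unphosphorylated YAP and TAZ bind TEAD factors on DNA and switch on genes such as Ctgf and Cyr61, which encode secreted matricellular proteins. In liver the pathway is known for its control of organ size and of hepatocyte identity. RNA levels do not measure the phosphorylation through which the relay works.

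Library totals lay between 53.6 and 76.2 M counts (M, 1e6). Levels are CPM, that is counts divided by the scaled library total in M, and are given for mice 1, 2 and 3 in that order. Fold changes set TERT(High) against TERT(Low), and SE is the standard error on the log2 scale. A gene is called when its edgeR p-value, adjusted by Benjamini-Hochberg over all tested genes, is under 0.05. Tert had 38, 33 and 30 counts in the TERT(High) libraries and 21, 21 and 12 in the TERT(Low) libraries. Of 12 hepatocyte markers all were detected in every library, 5 had a positive log2 fold change and the median was -0.19. By edgeR 1 was called lower and 0 higher, against 3.71% and 4.43% of all tested genes. Without adjustment 3 were lower and 0 higher at a p under 0.05, against 12.4% and 16.3%. Alb was at 83330.3 ± 6153 CPM in TERT(High) cells and 62649.8 ± 12102 CPM in TERT(Low) cells, and Serpina1c, a secreted protease inhibitor, at 18756.6 ± 3526 against 24095.1 ± 3654 CPM (SD, n = 3). Because bulk RNA was sequenced, fewer cells of a type and less RNA per cell cannot be told apart.

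Lats1, Lats2 and Tead1 were higher in TERT(High) hepatocytes, by 2.32-fold, 1.75-fold and 2.62-fold, and the target genes Ctgf and Cyr61 were not called in either direction. These 3 of 10 genes compare with 4.43% of all tested genes called higher. By edgeR 0 of the 10 were called lower, against 3.71% of all tested genes, and 0 were lower at an unadjusted p under 0.05 or by DESeq2. With no adjustment 5 genes were higher with p under 0.05, the other 2 being Stk3 and Yap1, which compares with 16.3% of tested genes. In 6 genes (Stk3, Stk4, Lats1, Lats2, Yap1 and Tead1) every TERT(High) value exceeded every TERT(Low) value, which was so for 17.5% of tested genes. The groups overlapped for Sav1, Wwtr1, Ctgf and Cyr61. The median log2 fold change of the 10 genes was 0.56 beside -0.01 over all tested genes, and 7 of the 10 were higher in all 3 mice, against 28.2% of tested genes. The smallest adjusted p of any gene in the table was 0.0241. When any library other than TERT(High) of mouse 1 was left out, edgeR called 0 genes in the whole table, and so none of the 10. With each of those 5 libraries left out, 4 to 6 of the 10 genes were higher at an unadjusted p under 0.05, against 11.2 to 14.2% of tested genes. DESeq2 then called 3 or 4 of the 10 higher, against 761 to 1256 of 13496 to 13779 tested genes.

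**Figure D1:**
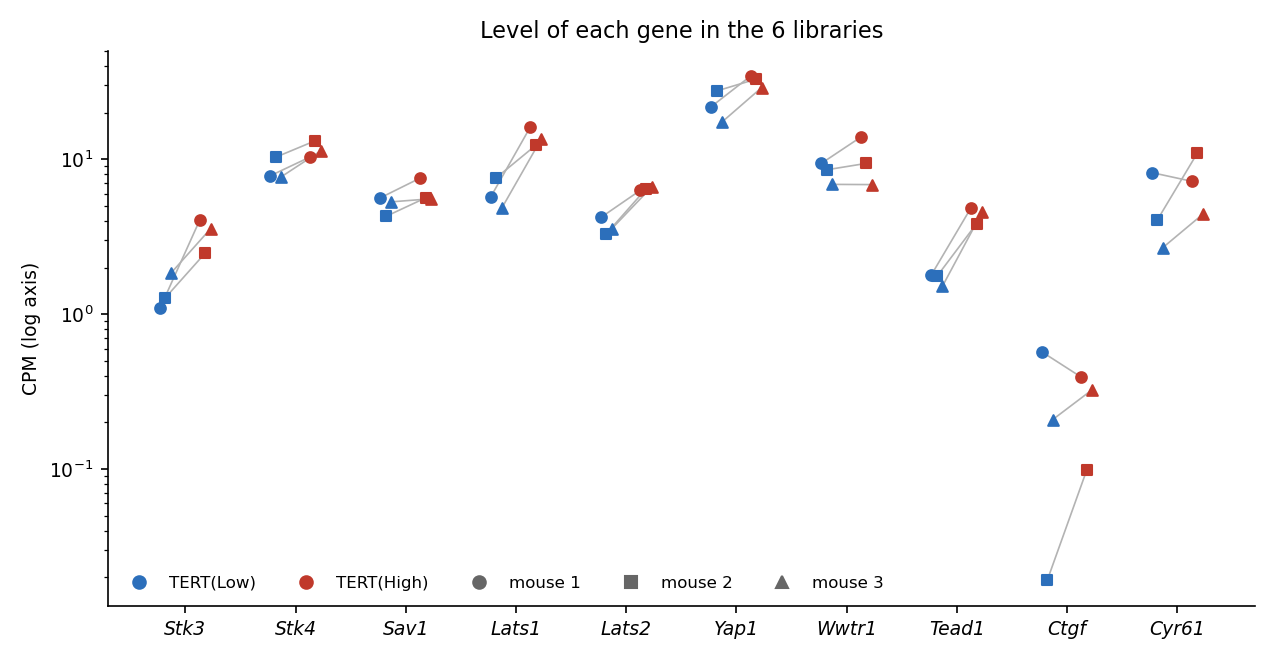
Level of each of the 10 genes in the 6 libraries, in CPM on a log axis, with TERT(Low) in blue, TERT(High) in red, a marker shape for each mouse and a line joining the libraries of a mouse. Lats1, Lats2 and Tead1 separate by group in every mouse, whereas the Ctgf and Cyr61 points of the groups are interleaved.

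The stretches ahead of the transcription starts are shown because TEAD factors bind a short hexamer, GGAATG on one strand and CATTCC on the other, through which YAP and TAZ reach DNA. Of the 10 genes 7 had a window in the RefSeq promoter table (GRCm38.p6), and the 250 bases before each start were searched on both strands. The windows of 4 genes (Sav1, Yap1, Wwtr1 and Cyr61) held the hexamer and those of 3 genes (Stk4, Lats1 and Lats2) did not. Over the windows of all tested genes with an entry, 10.8% held it (12.6% of all windows in the table). These shares count windows, not genes. Counted so, 5 of the 9 windows of the 7 genes held it, among them 2 overlapping windows of Wwtr1 with the same hexamer. Capitals mark the hexamer, each sequence runs 5′ to 3′ on the strand of its gene, and the 5 long stretches hold only bases outside the annotated gene.
Cyr61, chr3:145649986-145650235, minus strand: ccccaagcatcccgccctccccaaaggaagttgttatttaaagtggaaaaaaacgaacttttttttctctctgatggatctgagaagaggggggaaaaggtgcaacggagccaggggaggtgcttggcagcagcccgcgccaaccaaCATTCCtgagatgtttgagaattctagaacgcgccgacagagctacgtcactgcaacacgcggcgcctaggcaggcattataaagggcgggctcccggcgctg
Yap1, chr9:8004639-8004846, minus strand: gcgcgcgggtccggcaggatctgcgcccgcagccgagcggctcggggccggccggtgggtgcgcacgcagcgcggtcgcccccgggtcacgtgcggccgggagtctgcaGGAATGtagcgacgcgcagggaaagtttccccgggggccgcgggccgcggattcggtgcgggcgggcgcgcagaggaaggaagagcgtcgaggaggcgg
Wwtr1, chr3:57575911-57576160, minus strand: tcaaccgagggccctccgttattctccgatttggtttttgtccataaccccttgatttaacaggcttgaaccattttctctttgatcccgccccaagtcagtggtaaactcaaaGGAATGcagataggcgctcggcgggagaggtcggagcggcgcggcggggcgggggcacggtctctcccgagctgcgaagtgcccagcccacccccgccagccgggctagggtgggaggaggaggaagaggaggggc
Lats1, chr10:7680959-7681199, plus strand: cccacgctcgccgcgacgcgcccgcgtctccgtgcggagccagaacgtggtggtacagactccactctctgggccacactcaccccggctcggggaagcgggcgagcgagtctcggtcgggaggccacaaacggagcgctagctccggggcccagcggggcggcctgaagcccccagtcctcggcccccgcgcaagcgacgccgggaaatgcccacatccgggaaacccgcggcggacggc
Lats2, chr14:57746213-57746373, minus strand: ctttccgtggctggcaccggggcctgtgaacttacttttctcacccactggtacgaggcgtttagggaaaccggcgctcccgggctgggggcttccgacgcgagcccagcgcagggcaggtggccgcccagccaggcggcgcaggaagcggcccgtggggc
The hexamer began 103 bases before the RefSeq start used for the window in Cyr61, 141 in Yap1 and 136 in Wwtr1. In the other window of Wwtr1 it began 170 bases before the start. In Sav1 it began 106 bases before an internal start, within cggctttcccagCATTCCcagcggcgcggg (chr12:69987091-69987120, minus strand), which lies inside the annotated gene. A match describes these letters and does not show that a factor was bound.

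Among the upstream kinases, Stk3 differed more than Stk4. Stk3 (Entrez gene 56274, chromosome 15, 34875499 to 35155882) had 4.03, 2.48 and 3.57 CPM in TERT(High) cells and 1.09, 1.28 and 1.84 CPM in TERT(Low) cells. All 3 TERT(High) values lay above the TERT(Low) values, and mouse 1 had both the highest and the lowest library. Its log2 fold change was 1.26 (SE 0.30), with an adjusted p of 0.0530 that missed the threshold. DESeq2 gave an adjusted p of 0.0104 and limma-voom 0.0301. Stk4 (Entrez gene 58231, chromosome 2, 164074113 to 164155524) had 10.3, 13.2 and 11.3 CPM in TERT(High) cells and 7.82, 10.3 and 7.70 CPM in TERT(Low) cells. The lowest TERT(High) and the highest TERT(Low) values, from mice 1 and 2, were all but equal, so the groups only just separated. Its log2 fold change was 0.43 (SE 0.19, adjusted p = 0.188, 95% interval 0.989 to 1.84-fold). Stk3 made up 28.1, 15.8 and 23.9% of the counts of both kinases in TERT(High) and 12.2, 11.04 and 19.3% in TERT(Low) libraries, and these shares overlapped.

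Sav1, the scaffold that brings MST and LATS kinases together (Entrez gene 64010, chromosome 12, 69965009 to 69988141), had 7.56, 5.63 and 5.56 CPM in TERT(High) cells and 5.64, 4.28 and 5.31 CPM in TERT(Low) cells. Within mice 1 and 2 the TERT(High) library exceeded its partner by 1.34-fold and 1.32-fold, and within mouse 3 by 1.05-fold. The log2 fold change of 0.30 (SE 0.21) was not called (adjusted p = 0.404, 95% interval 0.872 to 1.74-fold). Its annotated exons share 1336 bases with those of Atl1 on the opposite strand, which had 24 to 102 counts, and since the strand setting of the counting is not given, reads there are uncertain.

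Both LATS kinases, the direct kinases of YAP and TAZ, were called higher. Lats1 (Entrez gene 16798, chromosome 10, 7681200 to 7716461) had 16.1, 12.3 and 13.5 CPM in TERT(High) cells and 5.69, 7.58 and 4.82 CPM in TERT(Low) cells. The lowest TERT(High) library exceeded the highest TERT(Low) library, and both came from mouse 2, where the ratio was 1.62 beside 2.84 and 2.81 in mice 1 and 3. This amounts to 1.21 on the log2 scale (SE 0.22, adjusted p = 0.0321, 95% interval 1.61 to 3.34-fold). Lats2 (Entrez gene 50523, chromosome 14, 57689662 to 57746212), which is itself a known YAP target, had 6.32, 6.44 and 6.61 CPM in TERT(High) cells and 4.21, 3.30 and 3.57 CPM in TERT(Low) cells. Its TERT(High) values were close to each other, and all lay above the TERT(Low) values. On the log2 scale the difference was 0.80 (SE 0.17, adjusted p = 0.0423, 95% interval 1.31 to 2.33-fold). With the mouse as a block the adjusted p of Lats2 was 0.0525, and with upper-quartile scaling it was 0.0524. Exons of Lats2 share 2955 bases with the annotated gene Gm49361 on the same strand, so some of its reads are uncertain.

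Of the coactivators, Yap1 separated by group and Wwtr1 did not. Yap1 (Entrez gene 22601, chromosome 9, 7931999 to 8004638) had 34.5, 32.9 and 29.1 CPM in TERT(High) cells and 21.8, 27.6 and 17.4 CPM in TERT(Low) cells. The gap between the groups was narrow, and mouse 2 again gave the smallest ratio, 1.19 beside 1.58 and 1.67. The fitted difference of 0.53 on the log2 scale (SE 0.20) gave an unadjusted p of 0.0335 and an adjusted p of 0.137 in edgeR, with a 95% interval of 1.04 to 2.01-fold. Wwtr1 (Entrez gene 97064, chromosome 3, 57455644 to 57575910) had 13.9, 9.41 and 6.86 CPM in TERT(High) cells and 9.40, 8.55 and 6.89 CPM in TERT(Low) cells. Mouse 3 had nearly the same level in both libraries, and the highest value of all was TERT(High) of mouse 1. The log2 fold change of 0.28 (SE 0.28, adjusted p = 0.568, 95% interval 0.760 to 1.94-fold) became -0.071 without that library. Wwtr1 contributed 19.1 to 28.7% of the summed Yap1 and Wwtr1 counts in TERT(High) and 23.7 to 30.1% in TERT(Low) libraries.

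Tead1, the DNA-binding partner through which YAP and TAZ act, had the largest fold of the 10 genes with all 6 libraries and no length correction. Stk3 had the larger log2 fold change with the length and GC correction described further on (1.004 against 0.70). It was also larger without TERT(Low) of mouse 3 (1.503 against 1.32, and 1.495 against 1.30 by DESeq2) and without both libraries of mouse 3 (1.457 against 1.29). Tead1 (Entrez gene 21676, chromosome 7, 112679356 to 112906784) had 4.88, 3.85 and 4.56 CPM in TERT(High) cells and 1.80, 1.76 and 1.52 CPM in TERT(Low) cells. The groups stood well apart, with ratios of 2.71, 2.19 and 3.01 in mice 1, 2 and 3. On the log2 scale this was 1.39 (SE 0.20, adjusted p = 0.0277, 95% interval 1.87 to 3.66-fold). The other TEAD genes in the table, named after their values were seen, were not called: Tead3 had a log2 fold change of 0.77 (SE 0.48) and Tead2 of 0.02 (SE 0.68), with adjusted p of 0.354 and 0.987.

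Neither target gene was called, and the groups overlapped for both. Cyr61 (Entrez gene 16007, chromosome 3, 145646971 to 145649985) had 7.21, 10.9 and 4.41 CPM in TERT(High) cells and 8.20, 4.07 and 2.69 CPM in TERT(Low) cells. TERT(Low) of mouse 1 exceeded 2 of the 3 TERT(High) libraries, and mouse 3 had the lowest value of each group. The fitted difference was 0.59 on the log2 scale (SE 0.49, adjusted p = 0.491), and the 95% interval from 0.668 to 3.38-fold includes both a decrease and the folds seen for Lats1 and Tead1. It rested on single libraries, at 1.15 without TERT(Low) of mouse 1 (unadjusted p = 0.0438, edgeR adjusted p = 0.207) and 0.19 without TERT(High) of mouse 2. Ctgf (Entrez gene 14219, chromosome 10, 24595442 to 24598683) had 24, 6 and 19 counts in TERT(High) and 42, 1 and 11 counts in TERT(Low) libraries, or 0.392, 0.0991 and 0.326 CPM against 0.572, 0.0191 and 0.209 CPM. Both its highest and its lowest library were TERT(Low), from mice 1 and 2. Its log2 fold change of 0.01 (SE 1.07, adjusted p = 0.994) had a 95% interval from 0.171 to 5.96-fold, which includes the fold seen for Lats1. With the mouse as a block it was 0.49 (SE 0.71, adjusted p = 0.654). Exons of Ctgf share 665 bases with Gm15270 on the opposite strand.

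Cyr61 is also an immediate early gene, of the kind that cells switch on within a short time of handling. Of 15 tested immediate early genes edgeR called 0 in either direction, against 4.43% of tested genes called higher and 3.71% lower. Without adjustment 0 of the 15 had a p under 0.05, against 28.7% of tested genes. The median log2 fold change of the 15 genes was -0.29. The summed level of this list was 418, 380.2 and 273 CPM in the TERT(High) and 491, 584 and 178 CPM in the TERT(Low) libraries. Like Cyr61, the sum was lowest in mouse 3 in both groups. From mouse 1 to mouse 2 Cyr61 went from 7.21 to 10.9 CPM in TERT(High) and from 8.20 to 4.07 CPM in TERT(Low) libraries. Between these mice the sum moved the other way in both groups. Jund, a subunit of the transcription factor AP-1, was at 98.1 ± 6.25 CPM in TERT(High) against 91.5 ± 19.0 CPM in TERT(Low) libraries (SD, n = 3). Zfp36, whose protein promotes mRNA decay, showed the same order at its low end, with 35.2 and 16.1 CPM in mouse 3 against 50.8 to 89.8 CPM in the other mice. The part of this response in the Cyr61 values was not tested.

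Per kilobase of transcript, Yap1 was the most abundant of the 10 and Ctgf the least. In TERT(High) cells the level per kilobase was 7.71 ± 0.671 CPM for Yap1, 3.72 ± 1.61 for Cyr61, 2.48 ± 0.449 for Sav1, 2.22 ± 0.789 for Wwtr1, 2.22 ± 0.276 for Stk4 and 1.94 ± 0.271 for Lats1 (SD, n = 3). Lats2 at 1.24 ± 0.0280, Stk3 at 1.15 ± 0.274, Tead1 at 0.445 ± 0.0531 and Ctgf at 0.114 ± 0.0640 CPM per kilobase followed (SD, n = 3). Neighbours from Cyr61 down to Lats1 overlapped in their library values, as did Lats2 and Stk3, so their order is not resolved. In TERT(Low) cells the 10 genes had the same order of means, from 5.34 ± 1.22 CPM per kilobase for Yap1 to 0.111 ± 0.117 for Ctgf (SD, n = 3). There Stk4 separated from Lats1 (1.65 ± 0.282 against 0.837 ± 0.196 CPM per kilobase), Lats1 overlapped with Lats2, and Tead1 overlapped with Ctgf.

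Ratios taken within a library do not depend on how libraries are scaled, but these are not corrected for transcript length. Transcripts are 7209 nt for Lats1, 9964 nt for Tead1 and 4171 nt for Yap1. With the length and GC correction described further on, log2 fold changes were 0.48, 0.70 and 0.35 for these genes, against 1.21, 1.39 and 0.53 without it. For every 100 Yap1 counts there were 46.8, 37.4 and 46.6 Lats1 counts in TERT(High) and 26.1, 27.5 and 27.7 in TERT(Low) libraries. For every 100 Yap1 counts there were likewise 14.1, 11.7 and 15.7 Tead1 counts in TERT(High) against 8.24, 6.37 and 8.71 in TERT(Low) libraries. These ratios separated the groups, and each had an exact two-sided permutation p of 0.1, the smallest that 3 against 3 libraries allow (0.35 adjusted over the 7 ratios computed). The ratio of Lats2 to Yap1 overlapped between groups, at 18.3 to 22.7 in TERT(High) and 11.97 to 20.5 in TERT(Low) libraries (exact permutation p = 0.5). The ratio of Cyr61 to Yap1 was 20.9, 33.1 and 15.2 in TERT(High) and 37.6, 14.7 and 15.5 in TERT(Low) libraries (exact permutation p = 0.9). A separated ratio shows that 2 genes differed unequally, not that 1 of them stayed the same.

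**Figure D2:**
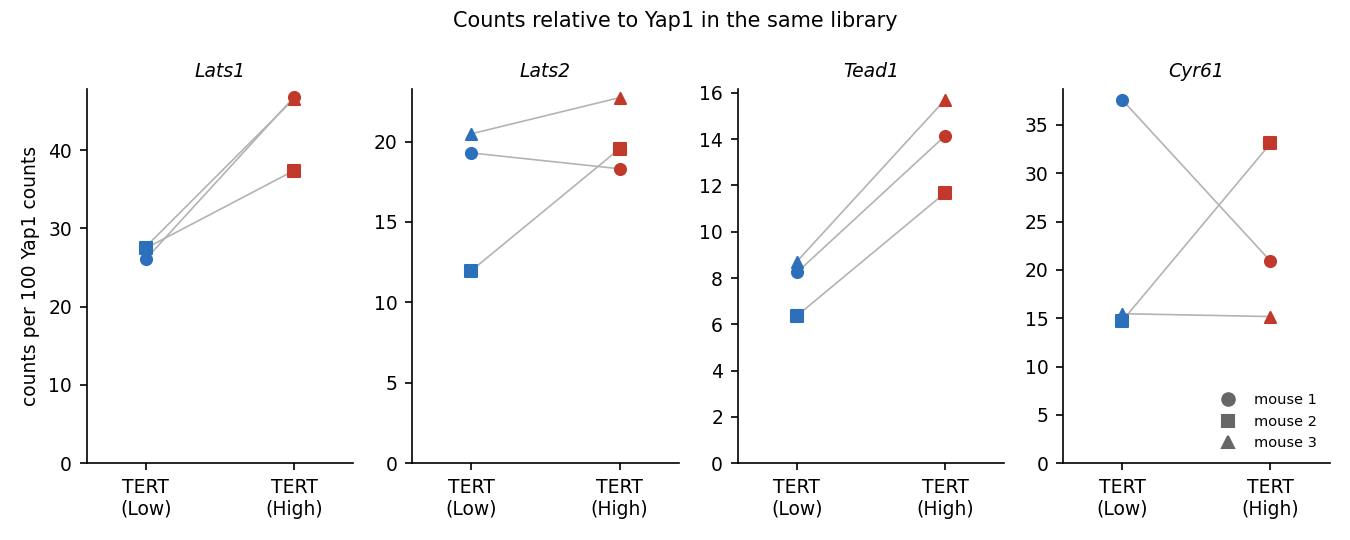
Counts of Lats1, Lats2, Tead1 and Cyr61 per 100 Yap1 counts in the same library (y axes start at 0), with 1 marker per library, a shape for each mouse and a line joining its libraries. For Lats1 the points lie at 26.1 to 27.7 in TERT(Low) and at 37.4 to 46.8 in TERT(High) libraries, while the lines for Cyr61 cross. The ratios are not corrected for transcript length.

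Across the whole table, differences followed transcript length, and the called kinases and Tead1 have long transcripts. The median transcript length was 4352 nt for the 10 genes and 2962.5 nt for the 12548 tested genes with a coding transcript. Stk4 (5232 nt), Lats1 (7209 nt), Lats2 (5191 nt) and Tead1 (9964 nt) fall in the longest quintile, whose median log2 fold change was 0.65 with an interquartile range from 0.03 to 1.14 and 15.2% of genes called higher. Lats1 and Tead1 lay above that range, Lats2 inside it above the median, and Stk4 below the median. Stk3 (2914 nt) falls in a quintile with a median of 0.06 and an upper quartile of 0.40, below its own 1.26. Cyr61 (2019 nt) falls in one with a median of -0.16 and an upper quartile of 0.13, below its own 0.59. Across the 10 genes the Spearman correlation of length with log2 fold change was 0.49, and across the 12548 genes 0.48 (genes share the 6 libraries and are not independent replicates).

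**Figure D3:**
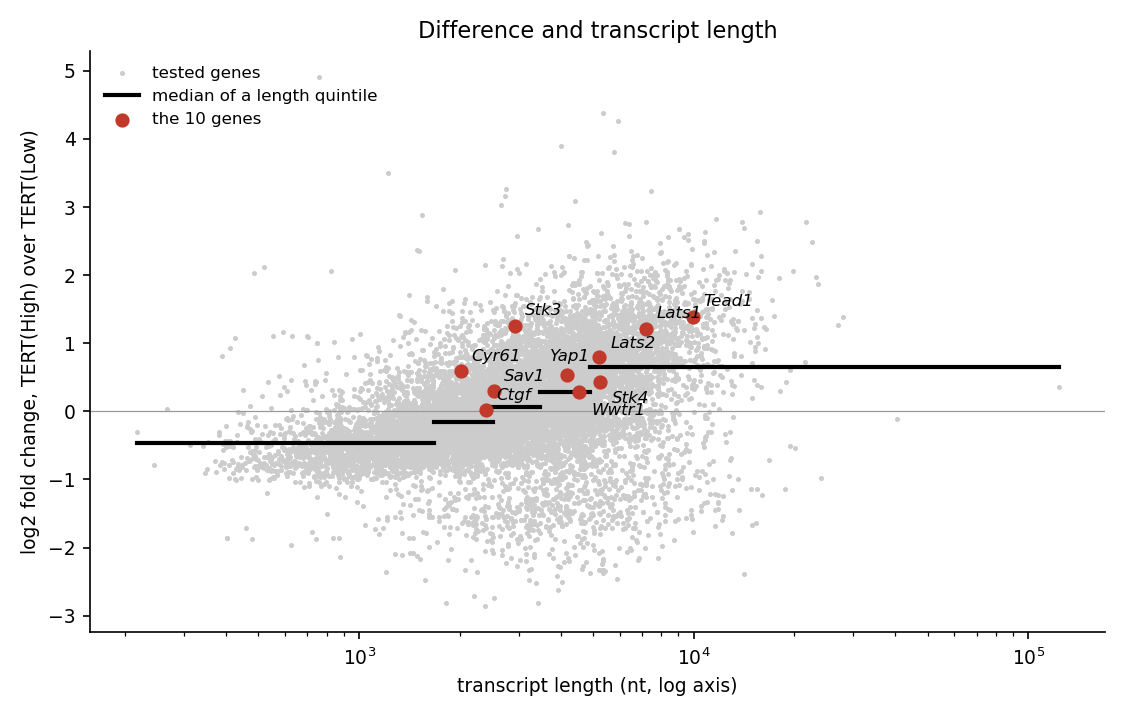
Log2 fold change of TERT(High) over TERT(Low) against transcript length in nt (log axis) for the tested genes in grey, with the 10 genes in red and a black bar for the median of each length quintile. The medians climb from -0.46 in the shortest to 0.65 in the longest quintile, and Stk3 stands farthest above the bar of its own quintile.

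With each library's trend in length and GC content removed, edgeR called 0 genes in the table, with 1773 (13.3%) at an unadjusted p under 0.05, among them 2 of the 10. The log2 fold change of Lats1 was then 0.48 (SE 0.35), that of Tead1 0.70 (SE 0.33) and that of Lats2 0.57 (SE 0.21), with adjusted p of 0.583, 0.4205 and 0.319. Stk3 kept most of its difference at 1.004 (SE 0.24, adjusted p = 0.204). Cyr61 moved to 0.83 (SE 0.47), Stk4 to 0.03 (SE 0.28) and Wwtr1 to -0.11 (SE 0.34). With the mouse as a block as well, Cyr61 had a log2 fold change of 0.86 (SE 0.28), an unadjusted p of 0.0225 and an adjusted p of 0.166. The outcome over the table depended on how the trend was fitted. With a lowess curve in place of the additive smooth, a choice made after seeing the data, edgeR called 0 genes without the block (2331 at an unadjusted p under 0.05) and 353 with it, and none of the 10 in either fit (1 and 2 at an unadjusted p under 0.05). Lats1 then had a log2 fold change of 0.29 and Tead1 of 0.34 without the block, and 0.32 and 0.33 with it, while Stk3 lay at 1.007 and 1.017.

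**Figure D4:**
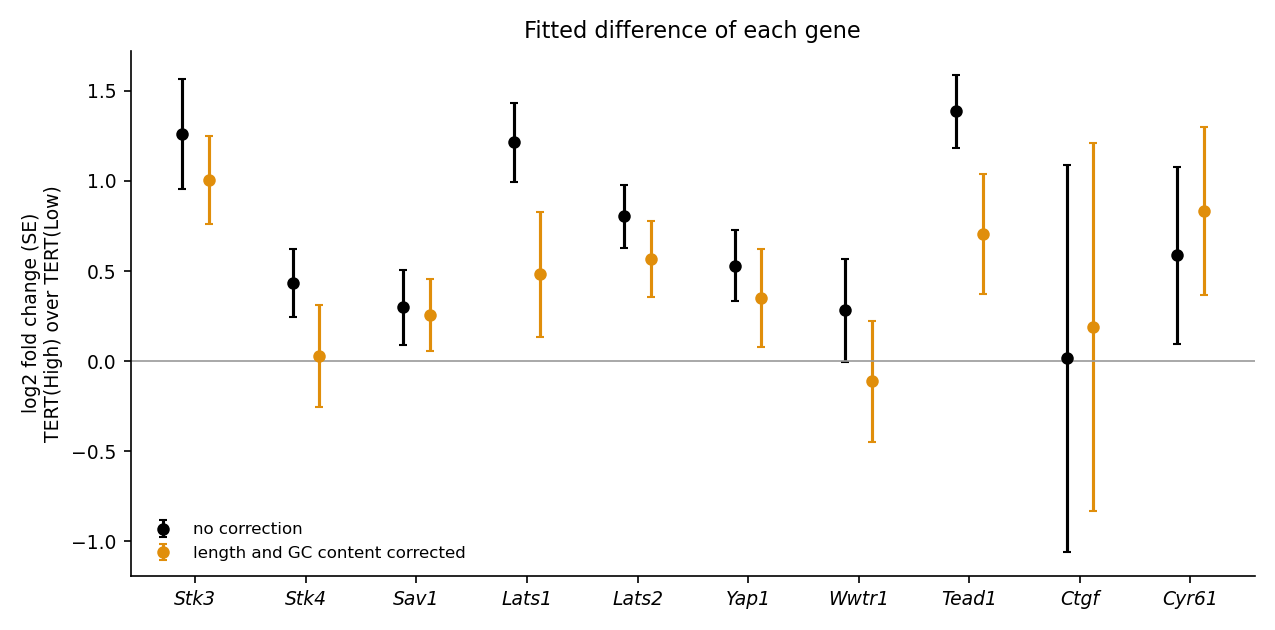
Fitted log2 fold change of each of the 10 genes, TERT(High) over TERT(Low), with bars of 1 SE, without correction in black and with length and GC content corrected in orange. Lats1 drops from 1.21 to 0.48 and Tead1 from 1.39 to 0.70, whereas Stk3 lies at 1.004 and Cyr61 lies higher, at 0.83.

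The authors' deposited table of results lists 9 of the 10 genes. Of these, the authors' deposited table gives Stk3, Lats1, Lats2, Yap1 and Tead1, which are 5 genes, an adjusted p under 0.05, all higher, against 15.8% of the genes listed there. The log2 fold changes in the authors' deposited table are 1.12 for Lats1, 1.19 for Tead1, 1.05 for Stk3, 0.71 for Lats2 and 0.51 for Yap1, with adjusted p of 1.02e-04, 4.13e-04, 0.0105, 0.0181 and 0.0269. A DESeq2 fit of the counts called 4 of the 10 higher (Stk3, Lats1, Lats2 and Tead1), against 11.3% of tested genes, and gave Yap1 an adjusted p of 0.0846.

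Around the 10 genes, 55 of 65 further pathway genes were tested, 5 were called higher and 0 lower. Over all tested genes 4.43% were called higher. Without adjustment 21 had p under 0.05 and were higher, against 16.3% of tested genes, and 0 were lower, against 12.4%. Their median log2 fold change was 0.29. Among 23 tested activators of the pathway 2 were called, and the list median was 0.95. These were Taok1, a kinase that activates MST and LATS kinases, at 11.7 ± 1.98 CPM in TERT(High) against 3.83 ± 0.627 CPM in TERT(Low) cells, and Map4k5, a kinase that acts on LATS in parallel to MST, at 8.14 ± 1.02 against 3.72 ± 0.265 CPM (SD, n = 3). Their log2 fold changes were 1.62 (SE 0.21) and 1.13 (SE 0.18), with adjusted p of 0.0274 and 0.0277. Among 17 tested inhibitors 2 were also called higher, with a list median of 0.07. Both belong to STRIPAK, a phosphatase complex that removes activating phosphates from MST kinases: Slmap, at 13.9 ± 1.20 against 4.70 ± 0.511 CPM, differed by 1.57 on the log2 scale (SE 0.17, adjusted p = 0.0241). Strn, at 5.50 ± 0.949 against 2.22 ± 0.0513 CPM, differed by 1.31 on that scale (SE 0.20, adjusted p = 0.0277). Taok1 (12409 nt) and Strn (8629 nt) fall in the longest quintile of transcripts, with a median of 0.65 and 15.2% called higher. Map4k5 (4498 nt) and Slmap (4508 nt) fall in the next, with a median of 0.28 and 5.27% called higher. The part of transcript length in these list medians was not tested.

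Of 10 genes that act on the stability or retention of YAP, 1 was called higher and 0 lower. Over all tested genes these shares were 4.43% and 3.71%. The called gene was the deubiquitinase Usp9x, named after its value was seen. Usp9x was at 53.3 ± 26.8 CPM in TERT(High) against 13.4 ± 4.73 CPM in TERT(Low) cells (SD, n = 3). Its log2 fold change was 2.00 (SE 0.44, adjusted p = 0.0439), with a transcript of 11887 nt. The abundant 14-3-3 genes Ywhaz and Ywhab, whose proteins hold phosphorylated YAP in the cytoplasm, differed by 0.27 each on the log2 scale (SE 0.16 and 0.18), with adjusted p of 0.339 and 0.381. Of 5 tested nuclear partners 0 were called by edgeR, against 4.43% of tested genes called higher and 3.71% lower. Without adjustment 2 of the 5 were higher and 0 lower at a p under 0.05, against 16.3% and 12.4% of tested genes. Arid1a, a SWI/SNF subunit that binds YAP, was at 11.9 ± 7.02 CPM in TERT(High) against 3.67 ± 1.20 CPM in TERT(Low) cells (SD, n = 3), a difference of 1.70 on the log2 scale (SE 0.54, adjusted p = 0.0962).

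Of 19 other YAP and TAZ target genes on the list 11 were tested, and 1 was called higher and 0 lower. Over all tested genes 4.43% were called higher and 3.71% lower. Without adjustment 3 of the 11 were higher and 0 lower at a p under 0.05, against 16.3% and 12.4% of tested genes. Of the 11 genes 8 had a positive log2 fold change, and their median was 0.80. The called gene was Dock5, a guanine nucleotide exchange factor named after its value was seen, at 3.43, 6.87 and 8.32 CPM in TERT(High) cells and 1.74, 2.29 and 1.499 CPM in TERT(Low) cells (1.75 on the log2 scale, SE 0.37, adjusted p = 0.0405), with a transcript of 9988 nt. The most abundant target, Nt5e, an ectonucleotidase, had 4.47, 29.5 and 34.5 CPM in TERT(High) cells and 3.49, 10.2 and 21.4 CPM in TERT(Low) cells. It was higher in the TERT(High) library of each mouse, and the mice differed widely in level (log2 fold change 0.97, SE 0.86, adjusted p = 0.517). Nuak2, a kinase and the next most abundant target, was at 7.77 ± 0.501 against 8.53 ± 1.88 CPM (log2 fold change -0.14, SE 0.21, adjusted p = 0.703).

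**Figure D5:**
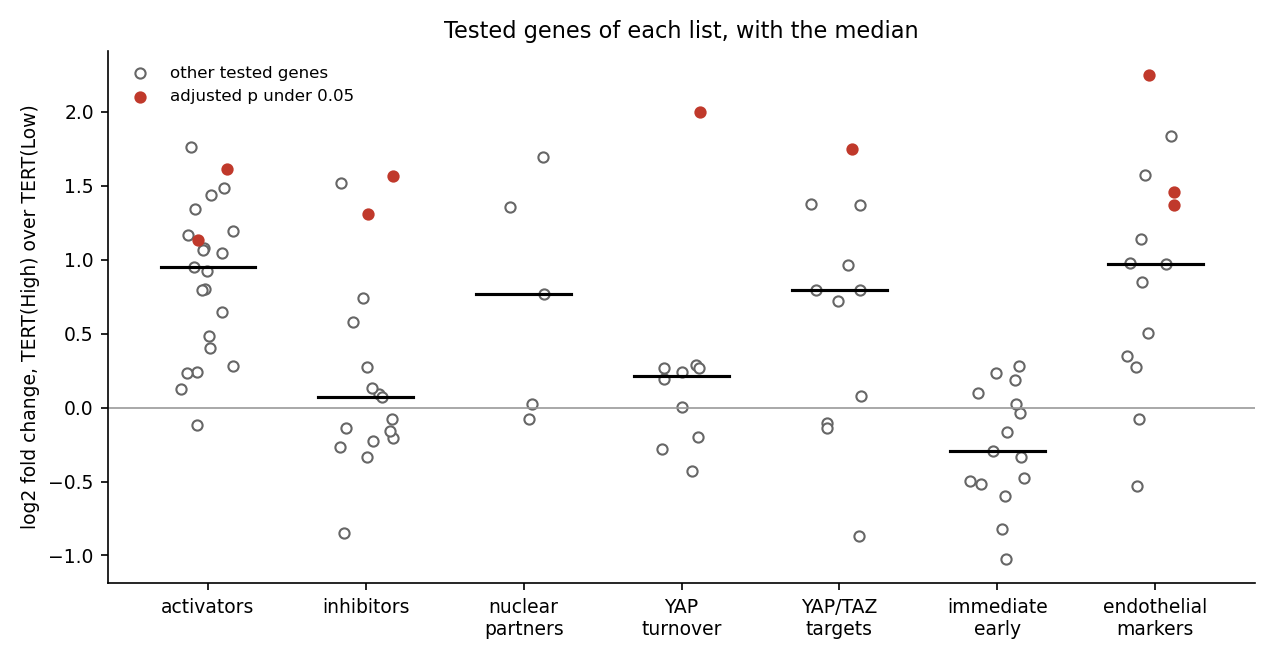
Log2 fold change, TERT(High) over TERT(Low), of each tested gene in 7 lists, with called genes filled and a bar at the list median. The medians run from 0.95 for pathway activators and 0.97 for endothelial markers to 0.07 for pathway inhibitors and -0.29 for immediate early genes. Values are not corrected for transcript length.

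Marker lists of other liver cells summed to at most 169 CPM in a library, against at least 133514 CPM for the hepatocyte markers. The 10 genes themselves summed to 52.0 to 105 CPM. Some markers of sinusoidal endothelium were higher in TERT(High) cells. Endothelial and stellate cells are known to express Tead1, Wwtr1, Ctgf and Cyr61. Of 14 endothelial markers 3 were called higher and 0 lower (Kdr, Ptprb and Lyve1, named after their values were seen). Over all tested genes these shares were 4.43% and 3.71%. None of the 14 was at 0 in any library, and the list median was 0.97. With the length and GC correction this median was 0.72, and by lowess 0.61. In both of these fits edgeR called 0 genes over the table. The vascular growth factor receptor Kdr was at 7.10 ± 0.760 against 2.74 ± 0.346 CPM (SD, n = 3), 1.37 on the log2 scale (SE 0.19, adjusted p = 0.0277) beside 1.39 for Tead1. The summed endothelial list ran from 142 to 169 CPM in TERT(High) cells and from 93.7 to 122 CPM in TERT(Low) libraries. Most of this sum came from Dpp4, so it mainly follows that gene and is not a measure of endothelial content. The surface lectin Clec4g had a log2 fold change of -0.08 (SE 0.21). The endothelial share in the Tead1, Lats1 and Lats2 differences was not tested.

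None of the other marker lists had a called gene except that of hepatocytes, where Asgr1 was lower (Asgr1, and Col1a1 among the stellate markers, were named after their values were seen). Over all tested genes 4.43% were called higher and 3.71% lower. Kupffer cell markers summed to 19.1 to 108 CPM in TERT(High) cells and 17.2 to 51.9 CPM in TERT(Low) libraries, highest in mouse 3 in both groups. Stellate markers summed to 5.12 to 143 CPM in TERT(High) cells and 5.40 to 10.96 CPM in TERT(Low) libraries, where the high value was TERT(High) of mouse 1 with 127 CPM of Col1a1. Most of that sum came from Col1a1, so it mainly follows that gene and is not a measure of stellate content. That library also held the highest Wwtr1 and Tead1 values (13.9 and 4.88 CPM). Ctgf was highest in TERT(Low) of mouse 1 (0.572 CPM) and Cyr61 in TERT(High) of mouse 2 (10.9 CPM). Cholangiocyte markers summed to 9.09 to 15.0 against 4.13 to 7.66 CPM and neutrophil markers to 4.74 to 12.05 against 4.85 to 11.3 CPM. Kupffer markers had a positive log2 fold change in 10 of 10 (median 0.87), none with an unadjusted p under 0.05, and stellate markers in 7 of 9 (median 0.26). Of 5 tested neutrophil markers 4 were positive (median 2.03), and of 3 tested cholangiocyte markers 2 (median 0.98). Before adjustment 2 of the 5 neutrophil markers were higher and 1 was lower at a p under 0.05. Over all tested genes 16.3% were higher and 12.4% lower at such a p. Summed lymphocyte markers reached at most 0.601 CPM and mesothelial markers at most 8.501 CPM. Of these lists 1 stellate, 1 cholangiocyte, 1 neutrophil, 4 lymphocyte and 1 mesothelial marker were at 0 in at least 1 library. The part of these cells in the values of the 10 genes was not tested.

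Genes with the most similar course over the 6 libraries were sought among the 7439 tested genes with a mean of at least 5 CPM, by Pearson correlation of log2(CPM + 1). For Lats1 these were Cpd, Ppip5k2 and Otud4 (0.993, 0.991 and 0.991). For Yap1 they were Patl1, Irf2bpl and Cables2 (0.993, 0.992 and 0.988), and for Tead1 Sf3b1, Rnf6 and Mia2 (0.998 for each). For Cyr61 they were Map2k3, Acox3 and Sun2 (0.9748, 0.964 and 0.958), and for Ctgf Alas1, Mgll and Arf2 (0.979, 0.977 and 0.959). The courses of Lats1, Yap1 and Tead1 and their neighbours separated the groups except for that of Cables2 beside Yap1. Alas1, the rate-limiting enzyme of haem synthesis, had 483, 233 and 408 CPM in TERT(High) cells and 586, 142 and 283 CPM in TERT(Low) cells, so that like Ctgf it was highest and lowest in TERT(Low) libraries of mice 1 and 2. These correlations are descriptions over 6 libraries that share 3 mice.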

How the data were processed

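Polyadenylated RNA of 6 libraries was analysed, 3 per group, and each mouse gave 1 library to either group, per the labels. Reads were handled with DESeq2, Trim Galore (0.4.0) and, on the build mm10, TopHat2 (2.0.13), per the submitters' processing notes. How reads were counted, with which strand setting and annotation, is not given in the sources used here. The authors deposited raw counts per gene, named by Entrez number and symbol. The authors' deposited table of results holds a baseMean signal (the mean scaled count), log2 fold changes with standard errors, a linear fold ratio, a test statistic score, and p-values with adjusted p-values.

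Groups were compared with edgeR 4.0.16, run in R 4.3.3 (filterByExpr, TMM scaling, robust quasi-likelihood fit on the group, Benjamini-Hochberg adjustment over 13288 genes). The SE is the absolute log2 fold change over the square root of F, and 95% intervals use the t distribution with the fit's degrees of freedom. No p-value here accounts for the pairing by mouse unless a block is named. Deviations from the group means of the libraries of a mouse correlated at 0.208, 0.561 and 0.421 for mice 1, 2 and 3. The biological coefficient of variation was 40.7%, and 29.6% with the mouse as a block. DESeq2 1.42.0 and limma 3.58.1 were alternatives. In 3 data sets simulated for this comparison on 13288 genes, 200 genes were changed in each. The share of these that edgeR called averaged 0% at a 1.5-fold, 2.04% at a 2-fold and 61.6% at a 4-fold change, with a mean of 6 false calls. The adjusted p depends on how many genes differ, and 1081 were called in the real data, so these shares do not give its sensitivity.

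Transcript length and GC content are those of the GENCODE M21 transcript with the longest coding sequence, found for 94.4% of tested genes; the correction fits an additive smooth trend per library with mgcv 1.9.3, or lowess on length and then on GC content. Coordinates are RefSeq, GRCm38.p6. The members and lists were chosen with earlier results of these data known. Named were all 10 members, up to 4 called genes of each list by adjusted p (or its 2 most abundant genes), 2 markers per cell type, and for 5 members the 3 genes of most similar course. A gene that this rule names is not reported here. Intervals cover the spread between libraries, which are 3 mice.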

Additional observations from a re-analysis of the deposited data

How the results depend on the processing

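The sign of Stk3, Sav1, Lats1, Lats2, Yap1, Tead1 and Cyr61 was the same in the 27 alternatives. Of these, 8 (DESeq2 leaving out 1 library at a time, and the lowess form of the length and GC correction, alone and with the replicate block) were chosen after seeing the data. With the length and GC correction by an additive smooth, alone or with a replicate block, edgeR called 0 of the 10 genes, 0 other pathway genes, 0 other targets and 0 genes in all. In that correction 2 of the 10 genes were higher at an unadjusted p under 0.05 (8.61% of all genes), and 3 with the replicate block (13.7% of all genes), while DESeq2 without it called 4. By lowess the correction called 0 of the 10 genes, 0 other targets and 0 genes in all, and with the replicate block 0 of the 10, 0 other targets, 2 other pathway genes and 353 genes in all. The replicate block alone called 2 of the 10 higher (Lats1 and Tead1), against 721 of 13288 tested genes. Upper-quartile scaling called the same 2, against 542 of 13288. The filter of 1 CPM in 3 libraries called 4 higher (Stk3, Lats1, Lats2 and Tead1), against 871 of 10645 tested genes. With limma-voom these 4 were also called, against 1373 of 13288. Genes called over the whole table were 1081, against 647 with library totals alone, which moved the median over all genes, on the log2 scale, from -0.01 to 0.14, 2784 with DESeq2 and 2477 with limma-voom. Called genes were 54.4% higher with TMM, 43.2% with upper-quartile scaling and 97.1% with library totals. Other pathway genes called were 5, against 8 with the filter of 1 CPM in 3 libraries, 19 with DESeq2 and 17 with limma-voom, and other targets called were 1, against 3 with either of the last tools. Leaving out a library or mouse, edgeR called 0 to 2 of the 10 genes, 0 to 15 other pathway genes, 0 to 2 other targets and 0 to 1650 genes in all. DESeq2, run only without single libraries, called 3 to 4, 6 to 23, 1 to 3 and 1585 to 3381.

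Adjusted p of Lats1, Lats2 and Tead1 stayed under 0.05 with DESeq2 in each left-out library, and reached 0.309, 0.337 and 0.309 with edgeR when mouse 3 was left out. The log2 fold change of Wwtr1 was -0.013 with limma-voom, -0.11 with the length and GC correction, -0.17 with the replicate block added, -0.25 and -0.28 in the lowess forms, and from -0.071 to 0.497 with a library left out. That of Ctgf was -0.0059 with DESeq2 size factors, -0.052 with upper-quartile scaling, -8.54e-04 with DESeq2 and from -0.54 to 1.24 with a library or mouse left out. That of Stk4 was -0.12 with the lowess correction and -0.12 with the replicate block added. The cause of these changes was not tested. Ctgf did not pass the filter of 1 CPM in 3 libraries.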
